A study of Caenorhabditis elegans with 2 samples.

Results

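The genes nhr-57, F22B5.4 and fmo-2 of the nematode Caenorhabditis elegans are known as readouts of HIF-1, the hypoxia-inducible factor. They are 3 of the 19973 protein-coding genes of the nuclear chromosomes and were chosen by name, with earlier results of these data known. Regions were assigned to a gene when their summit lay between 5000 bp before its start and 5000 bp past its end. The study mapped the binding of HIF-1 by ChIP-seq in 2 biological replicates of 1 group. Per the labels, both replicates are whole L4 larvae of strain OR3349, with both sexes pooled, at 52 h past a synchronization as L1 larvae starved after bleaching. HIF-1 carries a GFP-FLAG tag at its C terminus in a stable transgenic line, and chromatin was sheared by sonication and precipitated through GFP. The animals are whole larvae, so binding in 1 tissue and weaker binding in many cannot be told apart. The sources used here do not give the oxygen level of the cultures, and neither another condition nor a control library was analysed here.

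Most of the HIF-1 protein is removed while oxygen is plentiful: the prolyl hydroxylase EGL-9 marks it for degradation through VHL-1. When oxygen is low or EGL-9 is lost, HIF-1 accumulates, pairs with AHA-1 and activates genes next to hypoxia response elements, whose core is ACGTG or GCGTG. nhr-57 encodes a nuclear hormone receptor, and its promoter drives a reporter widely used to read HIF-1 activity. F22B5.4, known by its sequence name, encodes a protein whose role is not well described, and its transcript has been used as a readout of HIF-1-dependent induction by hypoxia. fmo-2 encodes a flavin-containing monooxygenase, an enzyme that oxidises small molecules, and is known as an intestinal target downstream of HIF-1 in studies of lifespan.

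The authors deposited an optimal list of 3531 peaks that passed the irreproducible discovery rate (IDR) procedure, called IDR peaks here, and lists of 30000 candidate regions for the pooled replicates and for each replicate. Each region has a signal, the authors' value relative to a control alignment, which is not scaled between lists. Signal and rank are therefore read within a list only. The candidate lists include background, and the IDR peaks were exactly the 3531 strongest pooled candidates. Read counts are not part of these lists, and the depth behind the signal is therefore unknown. With 2 replicates of 1 group no difference between conditions could be tested, and no p-value is given.

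The data separated the 3 genes. nhr-57 had 1 IDR peak, the second strongest of all, directly before its start. F22B5.4 had 4 IDR peaks, of which 1 was strong and lay inside the gene, before the start of its shorter transcript. fmo-2 had no region in any of the 4 lists. Across all protein-coding genes, 32.8% had an IDR summit in the same window and 12.2% had one in a promoter window, which spans 1000 bp before and 200 bp after a transcript start. nhr-57 and F22B5.4 had both. The share of genes with no region of any list in their window was 17.2%, and fmo-2 was among them.

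The sequences on which these results turn are printed 5′ to 3′ on the plus strand, the coding strand of all 3 genes, from the RefSeq copy of WBcel235 (ce11). Capitals mark each match to the core ACGTG or GCGTG on either strand, so that CACGT and CACGC are matches on the minus strand. For nhr-57 and fmo-2, the 300 bp from 270 bp upstream to 30 bp downstream of the gene start are shown, at V:4131619-4131918 and IV:10682254-10682553. They set the strongest promoter peak of the 3 genes beside a promoter with no region. For F22B5.4, the 151 bp centred on each of its 4 summits are shown, numbered by position, at II:8449856-8450006, II:8450805-8450955, II:8451540-8451690 and II:8457521-8457671.
nhr-57 start: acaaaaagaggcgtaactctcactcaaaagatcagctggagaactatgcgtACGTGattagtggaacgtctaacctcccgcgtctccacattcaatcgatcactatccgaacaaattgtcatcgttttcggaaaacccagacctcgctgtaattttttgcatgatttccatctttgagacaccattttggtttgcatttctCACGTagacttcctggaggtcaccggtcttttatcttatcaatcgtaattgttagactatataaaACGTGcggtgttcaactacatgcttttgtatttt
F22B5.4 peak 1: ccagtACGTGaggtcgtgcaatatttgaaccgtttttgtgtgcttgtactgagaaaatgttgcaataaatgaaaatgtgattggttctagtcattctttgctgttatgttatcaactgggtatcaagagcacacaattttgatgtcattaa
F22B5.4 peak 2: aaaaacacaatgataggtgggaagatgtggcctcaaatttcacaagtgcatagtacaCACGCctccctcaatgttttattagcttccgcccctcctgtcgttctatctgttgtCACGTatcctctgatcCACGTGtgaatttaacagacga
F22B5.4 peak 3: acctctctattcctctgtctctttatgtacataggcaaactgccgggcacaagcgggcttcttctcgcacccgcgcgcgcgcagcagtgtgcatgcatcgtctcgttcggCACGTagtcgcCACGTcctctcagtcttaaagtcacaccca
F22B5.4 peak 4: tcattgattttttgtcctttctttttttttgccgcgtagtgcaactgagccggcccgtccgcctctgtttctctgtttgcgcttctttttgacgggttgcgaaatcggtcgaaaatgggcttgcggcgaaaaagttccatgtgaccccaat
fmo-2 start: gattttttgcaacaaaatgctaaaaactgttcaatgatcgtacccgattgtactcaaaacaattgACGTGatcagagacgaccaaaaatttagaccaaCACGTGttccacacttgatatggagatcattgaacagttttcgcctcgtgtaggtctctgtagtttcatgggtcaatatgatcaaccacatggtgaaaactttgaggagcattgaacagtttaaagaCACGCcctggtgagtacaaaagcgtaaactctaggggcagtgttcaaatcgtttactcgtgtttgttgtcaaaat
The fmo-2 sequence held 4 matches, 2 of them the overlapping pair in the palindrome CACGTG, and the nhr-57 sequence held 3.

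nhr-57 (WBGene00003647) lies at V:4131889-4135102 on the plus strand and has 1 transcript. Its IDR peak at V:4131109-4132139 had its summit at position 4131689, in the intergenic stretch 200 bp upstream of the start. The signal was 4447 in the IDR list, and the peak ranked 2 of 3531. The peak above it had 7830, at the window of egl-9, and the third peak had 3850, so the nhr-57 peak stood between them with a gap on both sides. Replicate 1 had 1621 and replicate 2 had 2827 at this place, each at rank 2 of its own 30000 regions. The order of the peak was thus the same in both replicates, and the replicate summits were 8 bp apart.

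The nhr-57 peak was also broad. It spanned 1031 bp, the rank 17 among the widths of all IDR peaks, whose median was 416 bp and whose largest value was 1836 bp. The width was 834 bp in replicate 1 and 987 bp in replicate 2. A width of 416 bp is no measurement of extent: 92.9% of the pooled candidate regions had exactly that width. The region lay in the intergenic space behind phat-4, a gene of the pharyngeal gland toxin-related family that ends 979 bp before nhr-57, and reached across the start of nhr-57 into the gene.

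Around that peak nhr-57 had only weak regions. Its window held 9 pooled candidates, 7 candidates of replicate 1 and 10 of replicate 2. The next strongest pooled candidate had a signal of 62.1, lay in an intron of nhr-57, 1426 bp past the start, and ranked 5893. Its deposited −log10 q-value was 2.64, against 3.96 for every IDR peak. Replicate 1 had 33.0 and replicate 2 had 29.8 at this place, with summits 5 bp apart. Another pooled candidate had 40.5 within phat-4, with 31.6 in replicate 2 and no region of replicate 1 within 100 bp of it. Pooled candidates of 16.6 and 17.8 lay near the last exon of nhr-57 and the overlapping start of lgc-1, a ligand-gated ion channel gene that shares 75 bp with the end of nhr-57. These values lie close to the lowest pooled signal listed, 15.6.

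The peak cannot be given to nhr-57 by distance alone, because the windows of T05B4.13, phat-4 and lgc-1 reach it too. Its summit was closest to the start of nhr-57 among the starts of all protein-coding transcripts. No more than 3 protein-coding genes had a higher signal in their window.

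**Figure D1:**
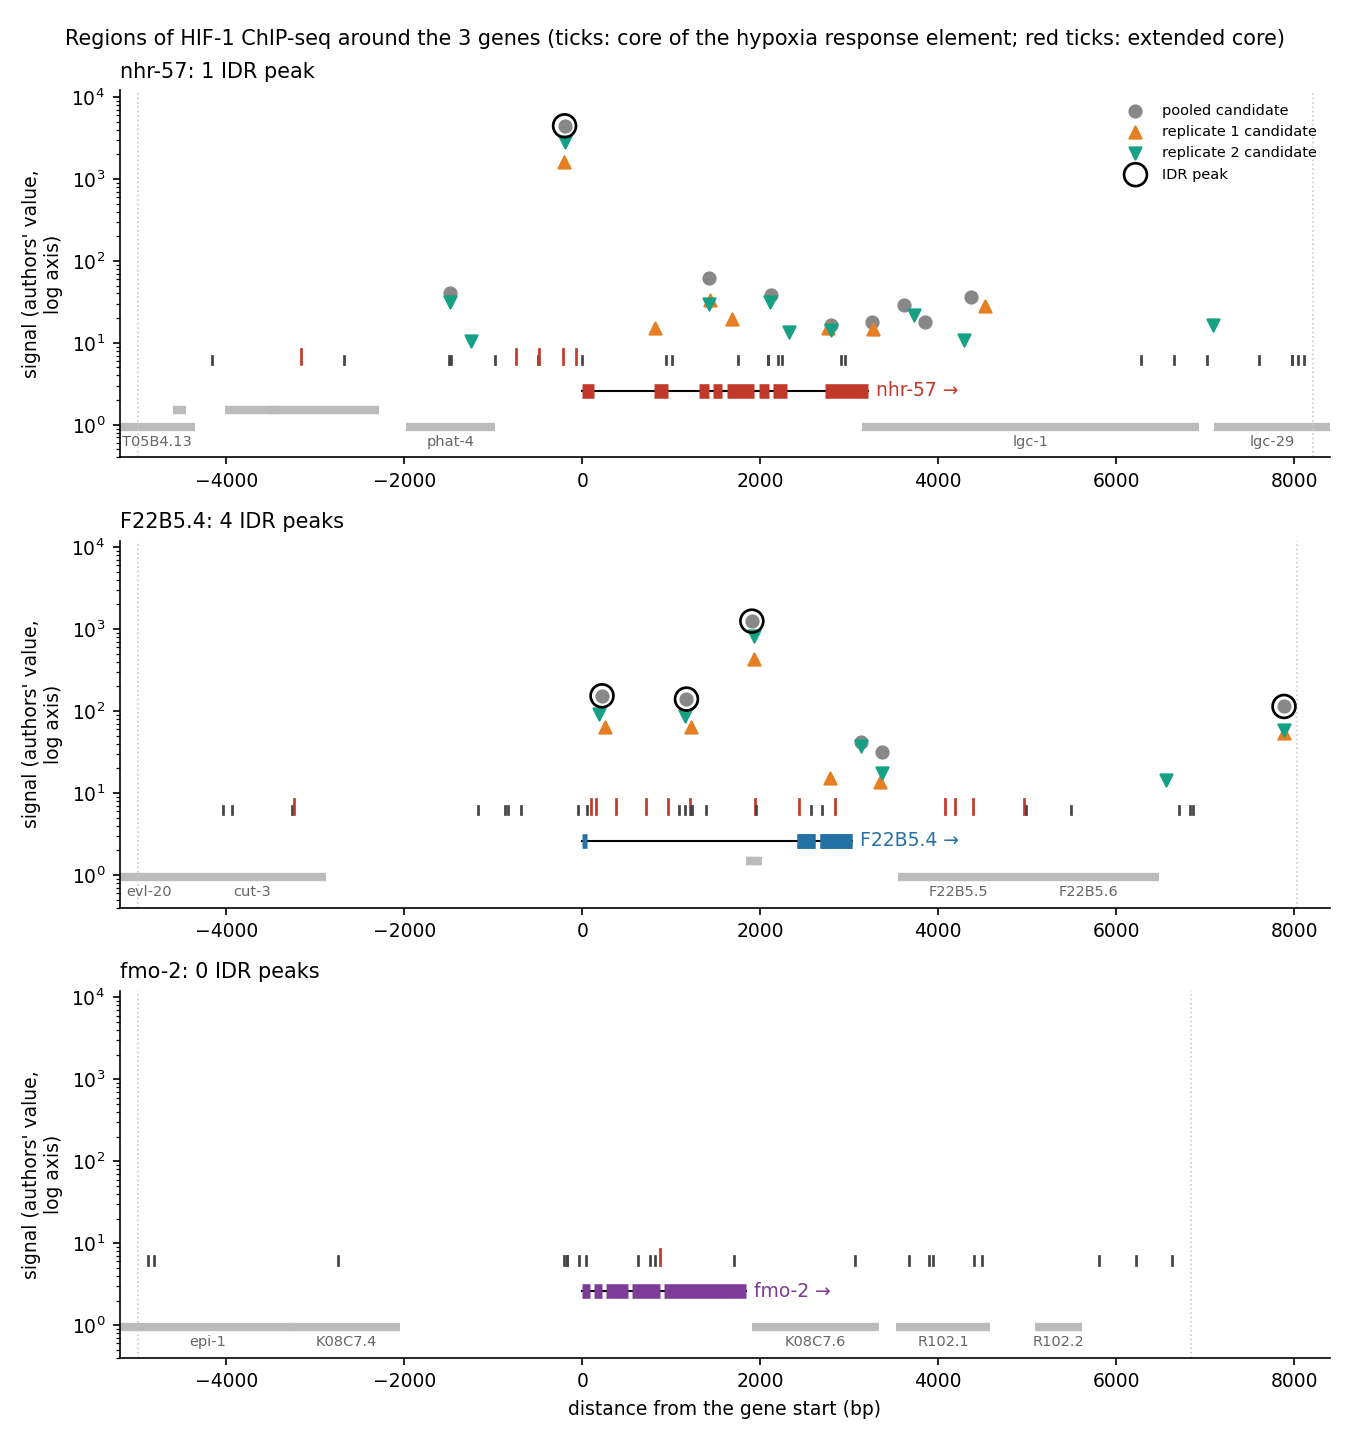
Candidate regions and IDR peaks around nhr-57, F22B5.4 and fmo-2, as the authors' signal on a log axis against the distance of the summit from the gene start in bp, with dotted lines at the window edges. Filled symbols are regions of the pooled and the 2 replicate lists, open circles are IDR peaks, coloured boxes are exons, grey bars other genes (upper row pseudogenes and non-coding RNA genes), and ticks the core, with red ticks for the extended core TACGTG. nhr-57 has 1 tall peak at its start, F22B5.4 has 4 IDR peaks of which the one at 1905 bp is highest, and fmo-2 has core matches but no region.

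F22B5.4 (WBGene00009042) lies at II:8449710-8452742 on the plus strand and has 2 transcripts, whose starts are 2411 bp apart. Only 1.33% of protein-coding genes, 266 of them, had 4 or more IDR summits in their window. The count of 4 for F22B5.4 includes a peak close to the edge of its window, and with windows of 2000 bp it was 3. The strong peak is the third by position, at II:8451400-8451856. Its summit lay at 1905 bp past the gene start, in the long intron of the longer transcript and 506 bp upstream of the start of the shorter one. The signal was 1253 in the IDR list at rank 41, 433 in replicate 1 at rank 44, and 829 in replicate 2 at rank 37. The replicate summits lay 4 bp apart and both were to the right of the IDR summit, by 28 bp in replicate 1 and 24 bp in replicate 2. The summit fell within the non-coding RNA genes F22B5.11 and F22B5.12, which overlap each other on opposite strands.

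The other 3 peaks of F22B5.4 were weak. The first, at II:8449723-8450138, had its summit in the same intron, 221 bp past the start of the longer transcript. Its signal was 154 at rank 1835, with 63.4 in replicate 1 and 92.4 in replicate 2. The second, at II:8450807-8451007, had its summit 1170 bp past the start, also in the intron. Its signal was 140 at rank 2106, with 64.0 in replicate 1 and 87.2 in replicate 2. Both lay close to the median of all IDR peaks, 158. In both, the replicate summits were farther apart than at the strong peak, by 65 bp at the first and by 67 bp at the second.

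The fourth peak, at II:8457388-8457803, lay 4854 bp past the end of F22B5.4 and thus close to the edge of the window. Its summit was 222 bp upstream of the start of zyg-9, which encodes a microtubule-binding protein of the spindle. That start was the closest among protein-coding transcripts. Its signal was 114 at rank 2777. Replicate 1 had 53.5 at rank 2526 and replicate 2 had 59.1 at rank 3551, so in replicate 2 alone it fell outside the 3531 strongest regions. The nearest IDR peaks beyond the window had signals of 98.3 and 131 at 7242 bp and 7999 bp upstream of F22B5.4, and for nhr-57 a signal of 313 at 8195 bp past its end.

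The pooled candidates of F22B5.4 that were no IDR peak had signals of 42.2 and 32.1 and lay just past its 3′ end. Replicate 2 had 37.9 at the first of these places, where replicate 1 had no region within 100 bp. At the second place replicate 1 had 13.6 and replicate 2 had 17.6. No region of any list had its summit in the stretch from the left edge of the window to the start of F22B5.4. The strong peak also falls in the windows of cut-3, which encodes a cuticle protein, F22B5.5 and F22B5.6. A higher signal was found in the windows of 129 protein-coding genes.

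All 5 IDR peaks of nhr-57 and F22B5.4 had a region in both replicate lists with a summit within 100 bp, where 96.1% of all IDR peaks had one. Across the 3393 shared IDR peaks, the replicate summits were a median of 22 bp apart, with quartiles of 10 bp and 42 bp. The strong peaks of nhr-57 and F22B5.4 and the peak by zyg-9 lay below the lower quartile, and the first and second peaks of F22B5.4 lay above the upper one. Over the shared peaks Spearman's rho between the signals of the replicates was 0.726 (n = 3393). That value describes peaks chosen from both replicates and is given without a test.

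**Figure D2:**
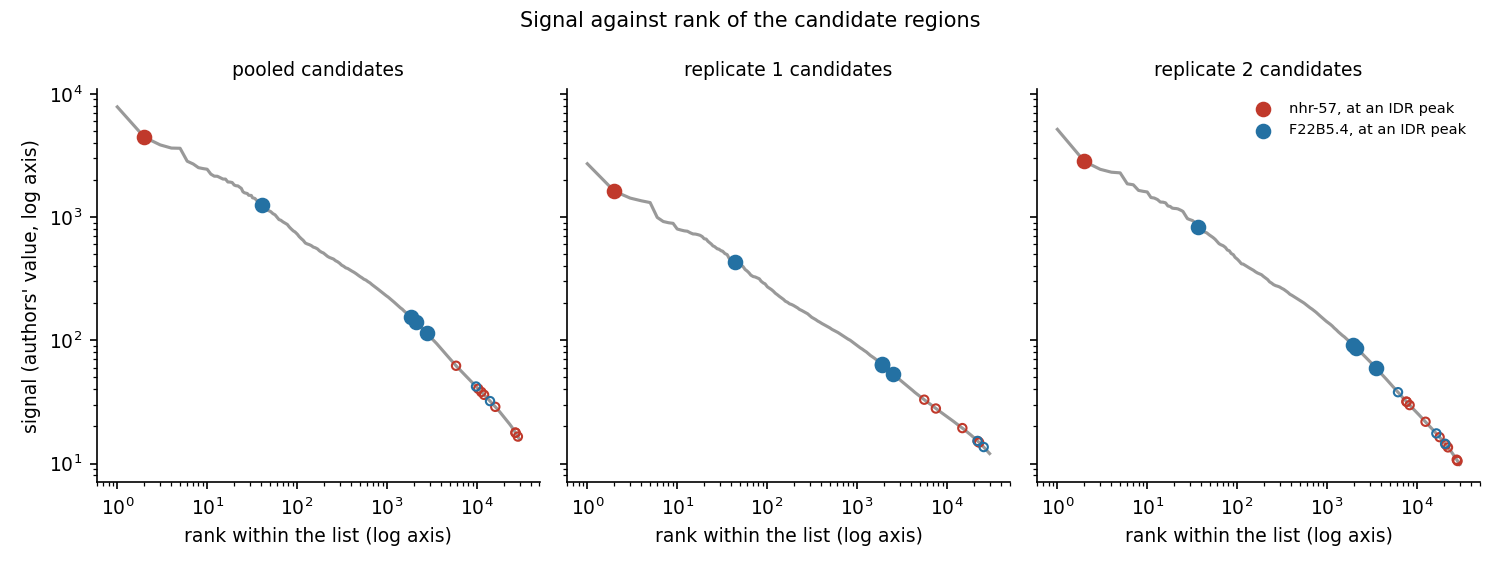
The authors' signal against rank, both on log axes, in the pooled list and in each replicate list of 30000 regions. The grey line is the whole list, filled points are the regions of nhr-57 and F22B5.4 at IDR peaks, and open points their other candidate regions: nhr-57 stands at rank 2 in all 3 lists, and the strong F22B5.4 peak at 41, 44 and 37.

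**Figure D3:**
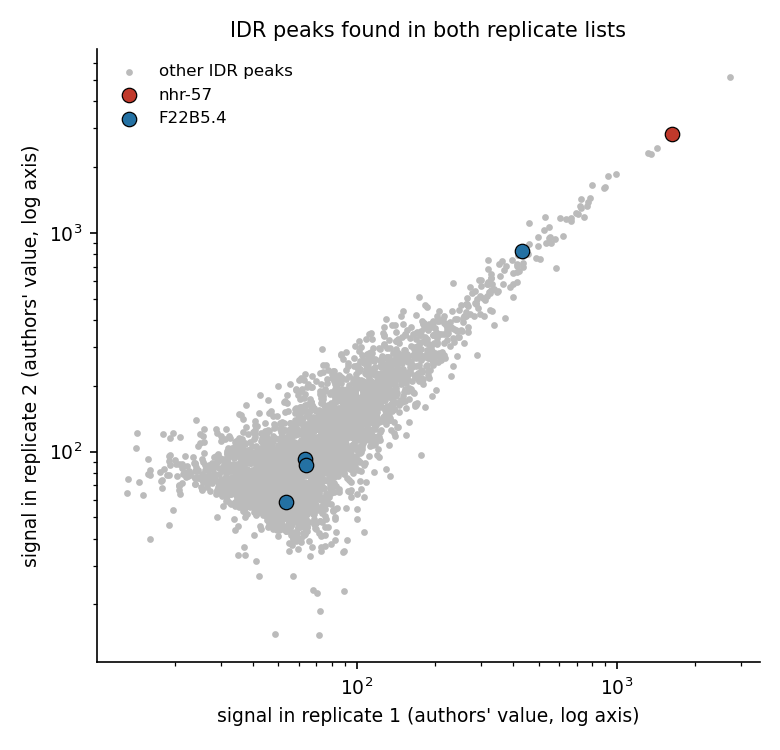
Signal in replicate 1 against signal in replicate 2, both on log axes, for the 3393 IDR peaks with a region in both replicate lists. The nhr-57 peak and the strong F22B5.4 peak lie at the upper end, and the 3 weak F22B5.4 peaks lie within the dense lower part.

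fmo-2 (WBGene00001477) lies at IV:10682524-10684367 on the plus strand and has 1 transcript. No region of the IDR, pooled or replicate lists had its summit in its window of 11844 bp. Each candidate list is cut at 30000 regions, and its lowest listed signals are 15.6 for the pooled list, 12.05 for replicate 1 and 9.81 for replicate 2. A region weaker than these would not be listed, so binding at fmo-2 was not detectable in these lists, which does not show that it was absent.

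The empty stretch reached well past the window. Between the nearest pooled candidates on either side of fmo-2 there were 35350 bp without a region. The gap was 28323 bp in replicate 1, 33901 bp in replicate 2 and 36759 bp in the IDR list. Over all 24518 gaps between pooled candidates the median was 1015 bp, and 1.78% were at least as long as that around fmo-2. The pooled gap was thus long among all gaps, but it was not long for a gene without regions. Of the other genes with no region in their window, 3428 lay between 2 pooled candidates, with a median gap of 64916 bp, and 80.8% of them lay in a gap at least as long as that around fmo-2. Neighbouring genes can share a gap, so these genes are not independent. The nearest region of any list to the left was one of replicate 1 with a signal of 13.9, at 16803 bp from fmo-2. To the right it was also one of replicate 1, with 24.1 at 10101 bp.

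The nearest IDR peaks ranked 2243 to the left and 1544 to the right, of 3531, and lay closest to the starts of other genes. To the left, a peak with a signal of 133 lay 22236 bp away, 1569 bp upstream of the start of fmo-1, another flavin-containing monooxygenase gene. To the right, a peak with 174 lay 12970 bp away, 265 bp upstream of the start of allo-1, a gene needed to remove paternal mitochondria.

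How well short reads can be placed at fmo-2 was described by the share of 32 bp words of the sequence that occur once in the genome. In the whole window that share was 86.3% for fmo-2, 96.7% for nhr-57 and 100% for F22B5.4, and it was 91.4% over the nuclear genome. In the 1000 bp upstream of the start it was 62.7% for fmo-2, against 100% for both nhr-57 and F22B5.4. Within the fmo-2 gene itself it was 100%, and no region was listed there either. The sources used here do not say how repeated sequence was treated before deposit, and its part in the empty stretch was not tested. The GC content of the windows was 35.5% for nhr-57, 35.5% for F22B5.4 and 37.1% for fmo-2, beside 35.4% for the nuclear genome.

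The core was then searched at the summits, with ACGTG or GCGTG on either strand and each strand of a palindrome CACGTG counted. Of the 5 IDR peaks, 3 had a core within 50 bp of the summit, where 43.3% of all IDR peaks had one. At nhr-57 the match nearest to the summit lay 17 bp away, 217 bp before the gene start, and is the first capital run of the nhr-57 sequence. At the strong F22B5.4 peak the matches lay 37 bp and 48 bp from the IDR summit. Measured from the replicate summits, the nearest was 9 bp away in replicate 1 and 13 bp away in replicate 2. At the second F22B5.4 peak the nearest match, a GCGTG on the minus strand, was 16 bp from the summit, and another followed at 40 bp. The first peak had its nearest match at 68 bp and the fourth at 199 bp.

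At nhr-57 and at the strong F22B5.4 peak, the core near the summit was preceded by T, which gives TACGTG. The search for this extended core was added after those letters had been seen, so its presence there is a description. It occurred within 50 bp of 3 of the 5 summits, at nhr-57 and at peaks 2 and 3 of F22B5.4, where 8.3% of all IDR peaks had it. The share was higher among stronger peaks. Among the 50 strongest IDR peaks, which include nhr-57 and the strong F22B5.4 peak, 62% had TACGTG (95% exact Clopper-Pearson interval 47.2% to 75.3%, which covers counting error over peaks only) and 82% had the core. Among the peaks at ranks 2001 to 3531, 6.53% had TACGTG (5.35% to 7.89%) and 38.2% had the core. The weak peaks of F22B5.4 at ranks 1835 and 2106 belong to the class of ranks 1001 to 2000, at 6.30%, and to this last class.

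**Figure D4:**
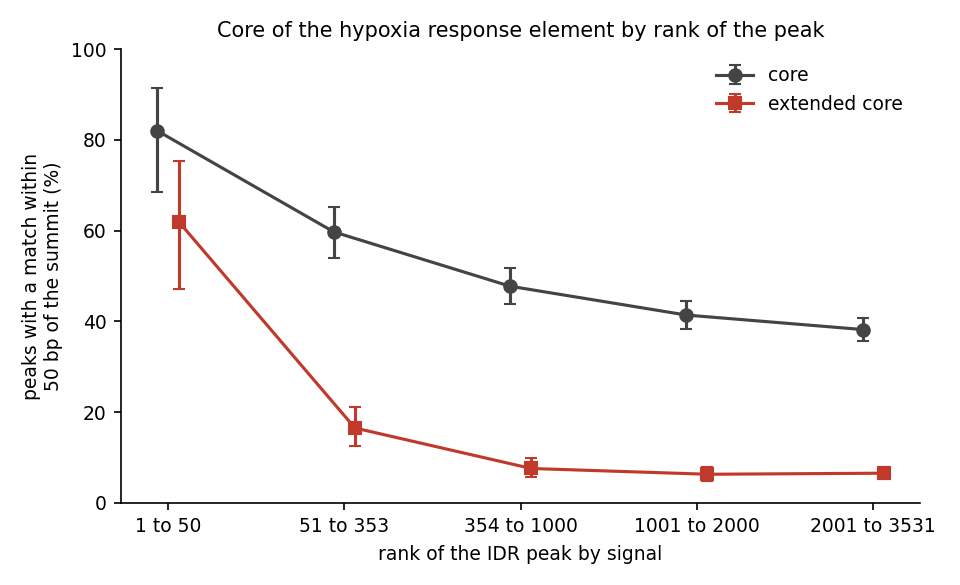
Percent of IDR peaks with a match of the core (ACGTG or GCGTG) or the extended core (TACGTG) within 50 bp of the summit, by rank of the peak, with exact 95% Clopper-Pearson intervals as bars. The extended core falls from 62% in ranks 1 to 50, which hold nhr-57 and the strong F22B5.4 peak, to 16.5% in ranks 51 to 353, and the core from 82% to 59.7%.

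The number of matches alone did not order the peaks of these genes. The nhr-57 peak had 1 match within 50 bp, and the strong and the second F22B5.4 peaks had 2 each at signals of 1253 and 140. Over all IDR peaks the median signal was 150 with no match, 168 with 1 match, 174 with 2 and 232 with 3 or more. The strongest peak without any match had 3850.

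Across the whole broad nhr-57 region there were 6 matches, at 751, 502, 483, 217, 67 and 2 bp before the gene start, and 4 of these were TACGTG. The nhr-57 window held 29 matches in all, of which 6 lay in the IDR region, 12 in candidate regions only and 11 in none. The 4 matches from 2084 to 2247 bp past the start lay in coding exons of nhr-57, under a pooled candidate with a signal of 38.1. The F22B5.4 window held 36 matches, with 10 in IDR regions, 7 in candidate regions only and 19 in none. The IDR regions covered 7.80% of the nhr-57 window and held 20.7% of its matches, and they covered 11.0% of the F22B5.4 window and held 27.8%. The background over the nuclear genome was 2.69% of matches in IDR regions, which cover 1.18% of its length. Most matches in both windows were thus outside the IDR regions.

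F22B5.4 stood apart in the extended core. That word was chosen after it had been seen at the strong peak in this window, so its counts here are a description. TACGTG occurred 14 times in its window, 38.9% of its core matches, where the share over the nuclear genome was 12.2%. Per kb of window, 0.305% of protein-coding genes had as many or more. The nhr-57 window held 5, or 17.2% of its matches. Of the 14 in the F22B5.4 window, 5 lay in IDR regions, others lay in coding exons of F22B5.4 itself, and 3 lay in the neighbouring F22B5.5, outside any candidate region.

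fmo-2 did not lack the core. Its window held 22 matches, of which 0 lay in a region of any list. The density was 1.86 per kb, above the median of 1.66 per kb over the windows of all genes, and 36.1% of genes had as much. In the 300 bp at the start, fmo-2 had 4 matches, centred 203, 170, 169 and 43 bp before the start, and 1.502% of all promoters of that length had as many. Those at 170 and 169 bp are both strands of a single palindrome CACGTG, and the count of fmo-2 exceeds that of nhr-57 only because both were counted. nhr-57 had 3 in the same stretch, a number that 4.80% reached, and F22B5.4 had 1. For F22B5.4 this stretch lies at the start of the longer transcript, not at the strong peak before the start of the shorter one. Each of the 3 genes had at least 1 match there, where 40.8% of all promoters had one. TACGTG was found 2 times in this stretch of nhr-57 and was not among these letters at fmo-2 and F22B5.4, and 7.06% of all promoters held it. In the whole fmo-2 window TACGTG occurred 1 time, in a coding exon 877 bp past the start. Whether the base before the core bears on the lack of a region at fmo-2 was not tested, and the share of unique 32 bp words upstream of the start also differed, at 62.7% for fmo-2 against 100% for nhr-57.

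Among 15 genes listed here as linked to HIF-1, 14 had an IDR summit in their window, where the background was 32.8%. In a promoter window 11 had one, where it was 12.2%. The list was drawn up in earlier work on these data with results known. It is not an independent set, and how HIF-1 affects each member was not examined, so the counts are a description. fmo-2 was the only one of the 15 without an IDR peak. By highest signal nhr-57 was the second and F22B5.4 was the fifth. egl-9, the prolyl hydroxylase that acts on HIF-1, had 7830. rhy-1, which encodes a membrane protein that restrains HIF-1, had 2031, and sqrd-1, the sulfide quinone oxidoreductase, had 1789. Below F22B5.4 followed cysl-2, of the cysteine synthase family, with 701, phy-2, a collagen prolyl hydroxylase subunit, with 530, and cdo-1, the cysteine dioxygenase, with 521.

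The other members of the list were lower still. ethe-1, which acts in sulfide breakdown, had 448, and dct-1, which acts in the removal of mitochondria, had 407. smf-3, a metal ion transporter, had 382, and the ferritin genes ftn-2 and ftn-1 had 381 and 225. suox-1, the sulfite oxidase, had 171. In nhr-57 and F22B5.4 the strongest peak was a promoter peak, for F22B5.4 by way of its shorter transcript, and the same held for rhy-1, sqrd-1, cdo-1, ethe-1, smf-3 and ftn-1. In egl-9, cysl-2 and phy-2 the highest signal lay outside a promoter window, and their strongest promoter peaks had 981, 303 and 102. dct-1, ftn-2 and suox-1 had IDR peaks outside the promoter windows only.

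**Figure D5:**
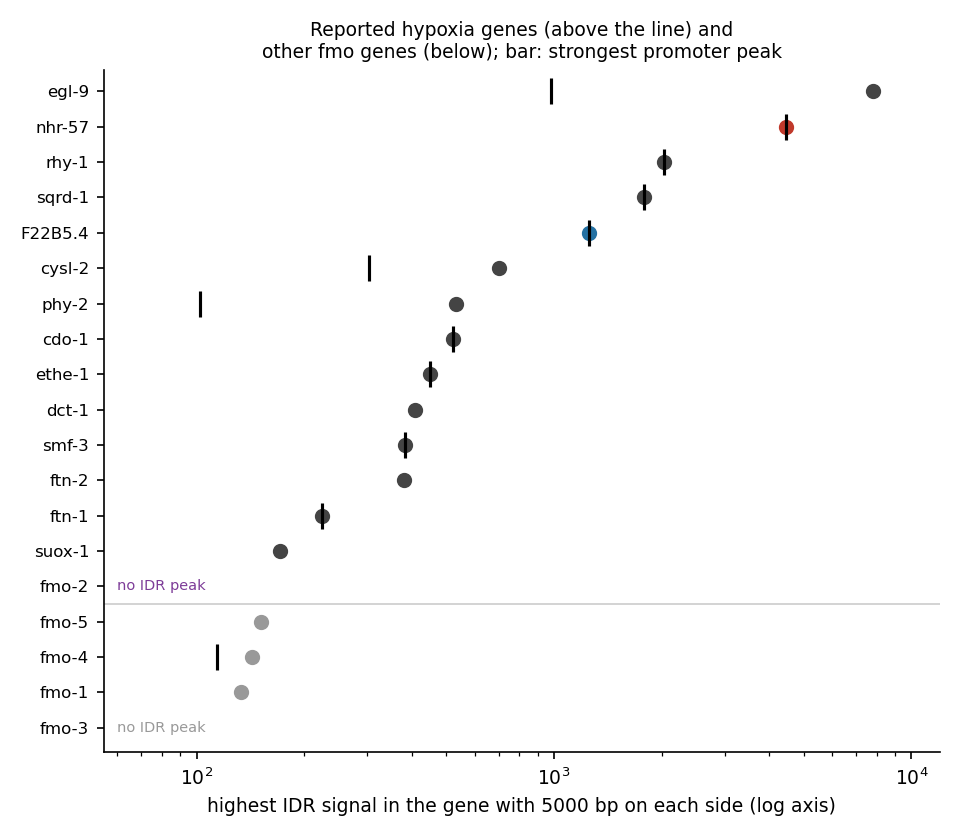
Highest IDR signal, on a log axis, in the window of each of the 15 genes listed as linked to HIF-1 and of the other fmo genes. The listed genes, headed as reported hypoxia genes, are above the line, and the other fmo genes are below it. Black bars mark the strongest IDR peak in a promoter window: nhr-57 is the second at 4447 and F22B5.4 the fifth at 1253, both with the bar on the point, and fmo-2 has none.

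Within their gene families, nhr-57 had the highest signal of the nuclear hormone receptors and fmo-2 had no region among the fmo genes. Of the 5 fmo genes, 3 had an IDR summit in their window, at signals of 151 for fmo-5, 143 for fmo-4 and 133 for fmo-1. All of these lay below the median IDR signal of 158. fmo-3 had 6 pooled candidates, the highest at 49.4, and no IDR peak. fmo-2 was the only fmo gene with no region of any list. fmo-4 alone had a promoter peak, at 114. Of 273 nuclear hormone receptor genes, 70 had an IDR summit in their window, 25.6% where 32.8% of all protein-coding genes had one. In a promoter window 26 had one, 9.52% where the background was 12.2%. After nhr-57, odr-7, which acts in an olfactory neuron, had 2033, nhr-3 had 1065 and nhr-40 had 954. In a promoter window odr-7 had no IDR peak and nhr-3 had 250, while the 954 of nhr-40 was a promoter peak.

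The genes most like each member were those nearest to it by the log10 rank of their strongest region, taken over both replicate lists. For nhr-57 these were Y62E10A.13 and memi-2, which share a region at rank 3 in both replicates, with signals of 1425 in replicate 1 and 2439 in replicate 2. Next came F22E12.3, chw-1 and egl-9, which share the region at rank 1. For F22B5.4 they were F35C5.1 and gsy-1, the glycogen synthase gene, which share a region at rank 47 in replicate 1 and 39 in replicate 2. The third name was F10E7.9, whose region stood at ranks 46 and 40 and which 5 other genes share. For fmo-2 no such gene could be named, because it has no rank.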

How the data were processed

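Per the file lists deposited with the samples, the authors called regions on each replicate and on both pooled, against a control alignment, and thresholded them by IDR. The sources used here name no aligner or peak caller. The deposited signal is the authors' value relative to the control, and the deposited −log10 q-value is as the authors' caller gave it. Neither was rescaled. Only the ce11 lists were used, whose regions all lie within the WBcel235 chromosomes. Regions were placed by summit (1-based) on Ensembl release 115. The 3 genes, the 15 genes listed as linked to HIF-1, the 2 families (by gene symbol) and the windows were chosen with earlier results of these data known. The genes named are these lists, the neighbours of the 3 genes, those with the nearest start to a peak, for each gene the 3 others nearest by log10 rank, and the 4 receptor genes with the highest signal. A match to the core was counted within 50 bp of a summit by its central base, on both strands. TACGTG was added after seeing the data. A match is a description, not a binding site. Python 3.11.15 with numpy 2.4.6, pandas 2.3.3 and scipy 1.17.1 was used. The code was checked on simulated data, where 200 of 200 planted cores were found. Alternatives were other windows, distances, letters, the strongest 1765 IDR peaks, and 1 replicate alone. The labels name the replicates biological, and the sources used here say no more about the cultures.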

Additional observations from a re-analysis of the deposited data

How the results depend on the processing

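Of the 22 alternative values of the results that answer a comparison, 18 stayed within 1.5 times the value reported and 4 moved. Of those for single genes and peaks, 45 stayed close and 22 moved. Among these, the strong F22B5.4 peak had 2 core matches within 50 bp of its IDR summit and 0 within 25 bp. The number of IDR peaks in the 3 windows, 5 in the report, was 8 with windows of 10000 bp and 2 among the 1765 strongest IDR peaks, where the strong peaks of nhr-57 and F22B5.4 are left. Peaks with a core within 50 bp, 3 in the report, were 1 when only GCGTG was counted. Core matches in IDR regions, 16 in the report, were 9 when each region was replaced by 100 bp on either side of its summit. At nhr-57 there was 1 in place of 6, and at F22B5.4 there were 8 in place of 10. Of those 8, 1 lay outside the IDR regions, 81 bp from a summit. With 1 replicate left out, the number of peaks ranged from 4 to 5, the peak by zyg-9 being lost without replicate 1. Peaks found in both replicates were 4 at 50 bp and 5 at 250 bp. Peaks with a core ranged from 3 to 4, the rank of nhr-57 from 2 to 2 and that of the strong F22B5.4 peak from 37 to 44. fmo-2 had 0 IDR peaks in every alternative run. No paired analysis was possible because there is 1 group. The lists stop at 30000 regions and carry no counts, which sets the limit for fmo-2.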

Other observations

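The base before the core differed among the 3 windows. Of the 36 matches at F22B5.4, 14 were TACGTG, 7 AACGTG, 6 GACGTG and 2 CACGTG, and the rest were GCGTG. At nhr-57, 9 of 29 were AACGTG, 5 TACGTG, 4 GACGTG and 4 CACGTG. At fmo-2, GCGTG was the more common form, with 12 matches beside 10 of ACGTG, whereas it made up 58689 of 170351 matches in the nuclear genome. Over the whole genome the share of matches in an IDR region was 2.70% for TACGTG, 2.04% for AACGTG and 2.33% for GACGTG, and the highest share among the 8 forms with a given base before the core was that of CGCGTG at 4.26%. TACGTG was thus common at the summits of the strongest peaks. Of all its matches in the genome, the 2.70% in an IDR region was close to the 2.69% for the core as a whole. The first is a share of peaks and the second a share of matches, so they are not compared directly.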
